A study of Mus musculus with 8 samples.

Results

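The genes described here are 8 imprinted genes of a network that controls embryonic and muscle growth, H19, Plagl1, Peg3, Dlk1, Grb10, Mest, Ndn and Sgce. They were chosen by name, as all probes whose platform symbol is 1 of the 8, which gave 18 of the 45281 probes on the array and 8 of its 21946 named genes. The RNA came from mouse skeletal muscle myoblasts, the mononucleated precursors of muscle fibres, and 8 Illumina WG-6 v2.0 bead arrays were used. The groups were siG9a at day 1, control at day 1, siG9a at day 0 and control at day 0, with 2 biological replicates each. siG9a cells received an siRNA to Ehmt2, the gene of the histone methyltransferase G9a, and control cells a scrambled siRNA. The sources used here do not give the strain, the age of the donor animals or the event from which days were counted.

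An imprinted gene is expressed, in at least some tissues, only or mainly from the maternal or the paternal copy. At many such genes this is set by DNA methylation laid down in the egg or sperm. Which copy was expressed in these cells was not measured. In mouse, the zinc finger factor PLAGL1 and the H19 RNA each influence the transcript levels of other genes in this network, and many of the genes are high in fetal muscle and fall after birth. H19, transcribed beside the growth factor gene Igf2, is induced when cultured myoblasts differentiate.

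Values are in log2 units above or below a level that differs from probe to probe, so they can be compared between arrays for 1 probe but not between probes, and they do not show whether a transcript was detected. The base of the logarithm is not stated with the deposited values and was taken as 2. For each gene the probe of largest standard deviation leads, and the others are reported after it. Differences are given ± SE from limma. Features, 31443 in all, are named genes at their lead probe and single unnamed probes, and 1 was called where its Benjamini-Hochberg adjusted p over all of them was below 0.05. Because the replicate numbers paired the arrays, values from a fit that also has a replicate term (the blocked fit) stand beside results that it changes. The SE after ± is that of the fit without the replicate term, also where a blocked adjusted p stands beside it.

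Array medians lay between -0.146 and 0.108, and all 4 arrays of replicate 2 had a higher median than all 4 of replicate 1. Ehmt2, the target of the siRNA, stood at -0.95 and -0.31 in siG9a and at 0.77 and 0.66 in control at day 1, against -0.82 and -0.69 in siG9a and 1.23 and 0.59 in control at day 0. All 4 siG9a arrays lay below all 4 control arrays, and the average difference was -1.50 ± 0.19 (limma adjusted p = 1, blocked 0.164). The difference averaged -1.52 on the probe ILMN_2705367 and -0.147 on ILMN_2615204, and both were lower in all 4 pairs. The median difference of 10 myoblast markers, replicate 2 minus replicate 1, was -0.791 in siG9a and -0.898 in control at day 1, and -1.37 in siG9a and -1.20 in control at day 0. The same median lay between 0.189 and 0.59 for 10 fibroblast markers and between 0.235 and 0.291 for 8 endothelial markers, beside 0.181 over all features on average. Among the fibroblast markers 3 stood far above that median in every group, Col3a1 (2.88 to 3.67 higher in replicate 2), Col1a1 (2.39 to 2.87) and Pdgfra (1.73 to 2.62), named after their values were seen. Of the myoblast markers 7 were lower in replicate 2 in every group, and Vcam1, Pax7 and Myf5 were higher. Whether the defining markers of the labelled cell type were present cannot be read from values on such a relative scale. In RNA of whole cultures, fewer cells of a type and less RNA per cell cannot be told apart.

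H19 and Mest, which moved most of the 8 between the days, each contain a microRNA gene, and the mature products are shown because they are known products of these transcripts. They were not measured on the array. The sequences are from RefSeq on GRCm38.p6, and capitals mark the seed, bases 2 to 8. No seed was shared between the 4.
mmu-miR-675-5p: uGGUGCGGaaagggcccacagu
mmu-miR-675-3p: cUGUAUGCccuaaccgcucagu
mmu-miR-335-5p: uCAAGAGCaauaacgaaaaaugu
mmu-miR-335-3p: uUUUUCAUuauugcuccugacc
The miR-675 pair lies on the minus strand of chromosome 7 within H19, and the miR-335 pair on the plus strand of chromosome 6 within Mest.

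Promoters of Mest, Grb10 and Ndn, among the genes that moved, are shown. Methylation of CpG sites near the start carries the parental mark at many imprinted genes. RefSeq windows of 300 bases, 250 before and 50 after a start, were found for 6 of the 8 genes, 9 windows in all, with a pair at Mest that overlap nearly wholly and of which 1 is shown. No window was found for H19 or Sgce, and the downstream Grb10 window is not shown. Which windows carry the parental mark was not tested. Capitals mark each CpG.
Mest, upstream start, chr6:30733256-30733555, plus strand: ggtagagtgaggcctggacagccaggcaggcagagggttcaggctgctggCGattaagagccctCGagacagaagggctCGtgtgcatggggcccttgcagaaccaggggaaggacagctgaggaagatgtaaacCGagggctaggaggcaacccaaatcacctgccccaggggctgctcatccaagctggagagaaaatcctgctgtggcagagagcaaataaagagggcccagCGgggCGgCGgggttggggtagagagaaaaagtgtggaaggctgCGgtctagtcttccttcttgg
Mest, downstream start, chr6:30737800-30738099, plus strand: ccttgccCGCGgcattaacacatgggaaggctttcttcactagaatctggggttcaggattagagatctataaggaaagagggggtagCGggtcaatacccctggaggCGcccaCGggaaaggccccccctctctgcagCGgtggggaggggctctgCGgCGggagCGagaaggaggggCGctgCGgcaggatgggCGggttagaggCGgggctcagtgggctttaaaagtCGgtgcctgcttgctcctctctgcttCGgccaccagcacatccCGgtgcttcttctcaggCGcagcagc
Grb10, upstream start, chr11:12037371-12037670, minus strand: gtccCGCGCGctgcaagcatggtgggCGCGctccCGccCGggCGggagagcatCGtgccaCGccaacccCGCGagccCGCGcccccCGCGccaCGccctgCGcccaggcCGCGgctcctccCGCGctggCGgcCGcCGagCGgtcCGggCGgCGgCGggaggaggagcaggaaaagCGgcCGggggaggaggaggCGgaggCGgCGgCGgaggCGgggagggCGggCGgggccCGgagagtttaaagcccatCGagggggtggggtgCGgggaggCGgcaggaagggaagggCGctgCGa
Ndn, chr7:62348027-62348326, plus strand: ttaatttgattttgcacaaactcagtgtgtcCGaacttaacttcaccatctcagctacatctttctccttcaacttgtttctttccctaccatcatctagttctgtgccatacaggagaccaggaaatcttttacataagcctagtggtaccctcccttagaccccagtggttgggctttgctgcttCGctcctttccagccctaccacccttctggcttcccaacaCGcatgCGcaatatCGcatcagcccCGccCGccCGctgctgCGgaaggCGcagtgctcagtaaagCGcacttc
The median over all 32851 windows was 7 CpG sites. The window at the upstream Mest start held 8 and that at the downstream start 17. The upstream Grb10 window held 45, more than 98.1% of all windows, and its downstream window 9. Ndn held 11, Plagl1 26, Peg3 13 and Dlk1 9. The E-box CAGCTG, which reads the same on both strands and is a form preferred by the myogenic factor MyoD, was present in 1 of the 9 windows, at the upstream Mest start, and in 16.3% of all windows. The palindrome GGGGCCCC, an element that PLAGL1 binds, was present in 1 of the 9, at Peg3, and in 1.1% of all. These are matches of letters, with no binding or methylation measured here.

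**Figure D1:**
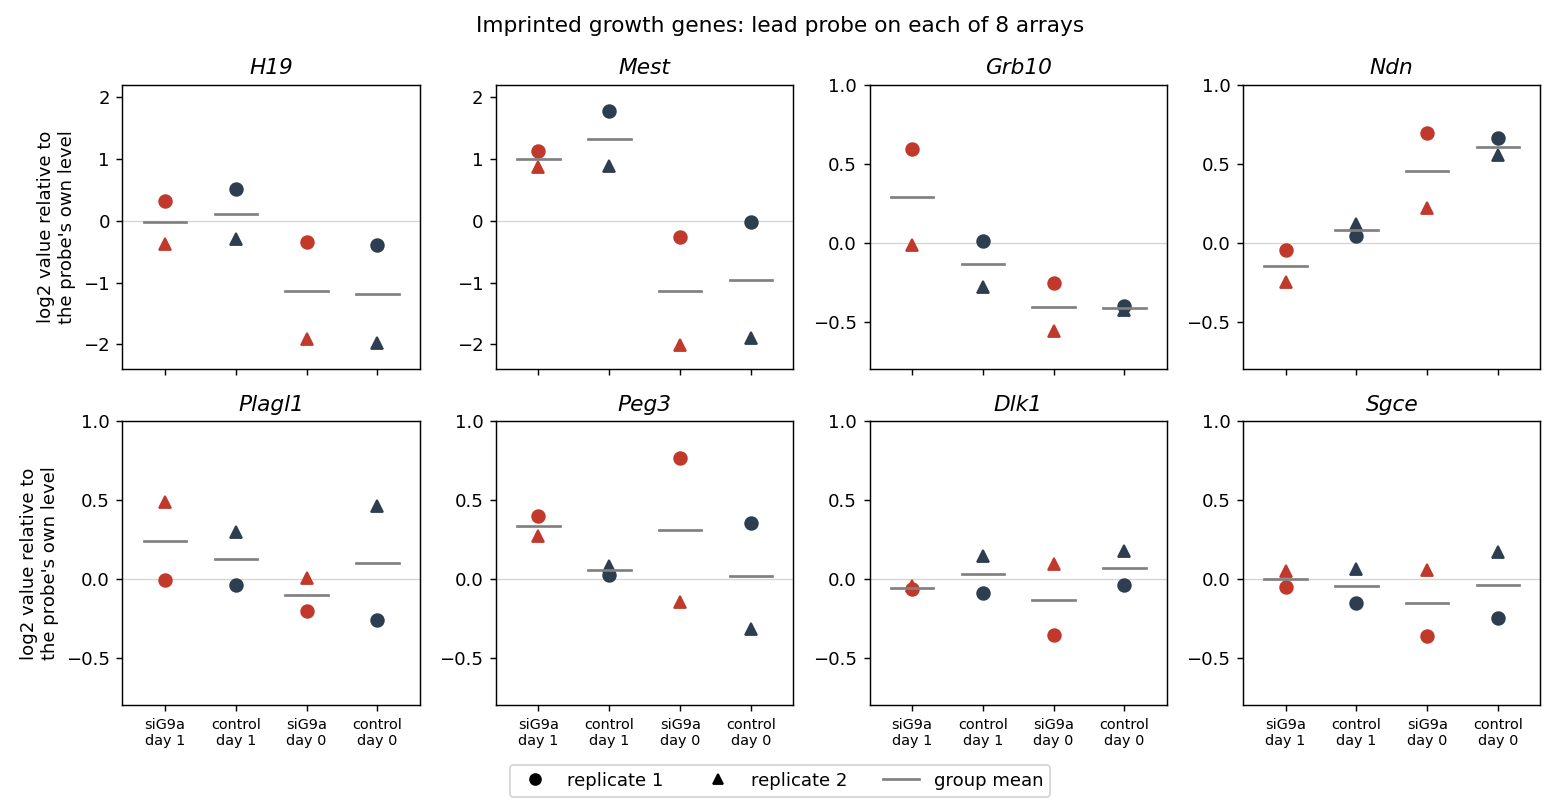
Relative log2 value of the lead probe of each gene on the 8 arrays (circles, replicate 1; triangles, replicate 2; red, siG9a; dark blue, control; grey line, group mean; H19 and Mest have a wider vertical scale than the other genes). All 4 Mest values at day 1, between 0.86 and 1.77, lie above all 4 at day 0, between -2.0 and -0.015, and the Ndn values at day 1 lie below those at day 0.

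Between day 0 and day 1, 4 of the 8 genes moved the same way in every pair of replicate and siRNA, H19, Mest and Grb10 upward and Ndn downward. Over all features, 33.1% moved one way in all 4 pairs, 20.8% upward and 12.3% downward. Averaged over siG9a and control, limma called 1 of the 8 genes, Mest, beside 4.26% of all features (1.5% higher and 2.76% lower). Among these calls over all features 35.3% were higher at day 1, and after median centring of the arrays 23.1%. The blocked fit called all 4 of these genes, beside 15.2% of all features (6.55% higher and 8.64% lower). Plagl1, Peg3, Dlk1 and Sgce were called in neither fit. The median difference of the 8 genes was 0.127, beside 0.053 over all features.

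H19 is a maternally expressed noncoding RNA. Its lead probe ILMN_2906728 stood at 0.33 and -0.38 in siG9a and at 0.51 and -0.30 in control at day 1, against -0.35 and -1.91 in siG9a and -0.38 and -1.97 in control at day 0 (replicates 1 and 2). Each array at day 1 was above the array of the same replicate and siRNA at day 0, while the 2 days overlapped because replicate 1 at day 0 reached the level of replicate 2 at day 1. Averaged over siG9a and control, H19 was higher at day 1 by 1.19 ± 0.43 (limma adjusted p = 0.256), a 2.28-fold difference. In the blocked fit it rose (SE 0.154, adjusted p = 7e-04). The rise was 0.67 and 1.53 in the siG9a replicates and 0.89 and 1.67 in the control replicates. The second probe ILMN_1256343 gave an average of 0.639, with 3 of 4 pairs higher, and was not called with every probe tested singly (blocked adjusted p = 0.0609). Its exception was siG9a replicate 1, at -0.051.

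Of the network's zinc finger transcription factors, Plagl1, which can arrest the cell cycle, stood at -0.0082 and 0.49 in siG9a and at -0.039 and 0.30 in control at day 1, against -0.20 and 0.0082 in siG9a and -0.26 and 0.46 in control at day 0. The days overlapped, with an average difference of 0.18 ± 0.20 (adjusted p = 0.996, blocked 0.261). Its other probes, ILMN_2886742 and ILMN_1252582, were higher at day 1 in all 4 pairs, by 0.166 and 0.114 on average, and neither was called. Peg3, also known as Pw1, marks progenitor cells in muscle. It stood at 0.40 and 0.27 in siG9a and at 0.029 and 0.086 in control at day 1, against 0.77 and -0.15 in siG9a and 0.36 and -0.32 in control at day 0. The difference between days was -0.36 in siG9a and -0.33 in control in replicate 1, but 0.42 and 0.40 in replicate 2, so that the average was 0.033 ± 0.22 (adjusted p = 1). The same split between replicates appeared on the other 2 Peg3 probes in control, where the difference between days was -0.18 and -0.040 in replicate 1 and 0.41 and 0.64 in replicate 2. In siG9a, ILMN_1245246 showed it too, at -0.21 and 0.29, but ILMN_1225513 ran the other way, at 0.28 and -0.0022.

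Among the signalling proteins, Grb10 is an adaptor that binds the insulin and IGF1 receptors and dampens their signal. Its lead probe ILMN_2518412 stood at 0.59 and -0.012 in siG9a and at 0.012 and -0.28 in control at day 1, against -0.26 and -0.56 in siG9a and -0.40 and -0.43 in control at day 0. The days overlapped only through control replicate 2 at day 1 and siG9a replicate 1 at day 0. The average difference was 0.49 ± 0.16 (limma adjusted p = 0.2), a rise in the blocked fit (SE 0.0965, adjusted p = 0.00777). The probes ILMN_2546546 and ILMN_1257352, assigned to cDNA clones rather than to the RefSeq transcript, stood at 0.125 and 0.0077 and were not called. Dlk1, a membrane protein with EGF repeats that restrains fat cell formation, stood between -0.086 and 0.15 at day 1 and between -0.35 and 0.18 at day 0. Its average difference was 0.017 ± 0.14 (adjusted p = 1) and its second probe gave 0.015.

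Mest, a paternally expressed gene for a protein of the hydrolase fold family, moved most. Its lead probe ILMN_2846904 stood at 1.14 and 0.86 in siG9a and at 1.77 and 0.88 in control at day 1, against -0.27 and -2.0 in siG9a and -0.015 and -1.90 in control at day 0. The days did not overlap, which held for 10.8% of all features, 4.98% higher at day 1 and 5.84% lower. Mest rose by 2.21 ± 0.48, or 4.62-fold (limma adjusted p = 0.037, blocked 0.000198). Its probes ILMN_2642417 and ILMN_2642418 were higher in all 4 pairs as well, by 2.06 and 1.53 on average. The limma call was lost with median centring of the arrays (adjusted p = 0.138), and without either siG9a array at day 1 (0.0955 and 0.068), control replicate 1 at day 1 (0.0784), siG9a replicate 2 at day 0 (0.0997) or control replicate 2 at day 0 (0.0718). The blocked call held under centring and without each array in turn.

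Ndn encodes necdin, a MAGE family protein that binds E2F factors and promotes myoblast differentiation and survival. It stood at -0.045 and -0.25 in siG9a and at 0.045 and 0.12 in control at day 1, against 0.70 and 0.22 in siG9a and 0.66 and 0.56 in control at day 0. The days did not overlap. The average difference was -0.57 ± 0.14 (limma adjusted p = 0.0665), and in the blocked fit Ndn fell (SE 0.0953, adjusted p = 0.00323). Without siG9a replicate 2 at day 0 the unblocked model called it too (adjusted p = 0.0464). Sgce, which encodes epsilon-sarcoglycan, stood between -0.15 and 0.066 at day 1 and between -0.36 and 0.17 at day 0, with an average difference of 0.071 ± 0.15 (adjusted p = 1). Ndn and Sgce had 1 probe each.

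**Figure D2:**
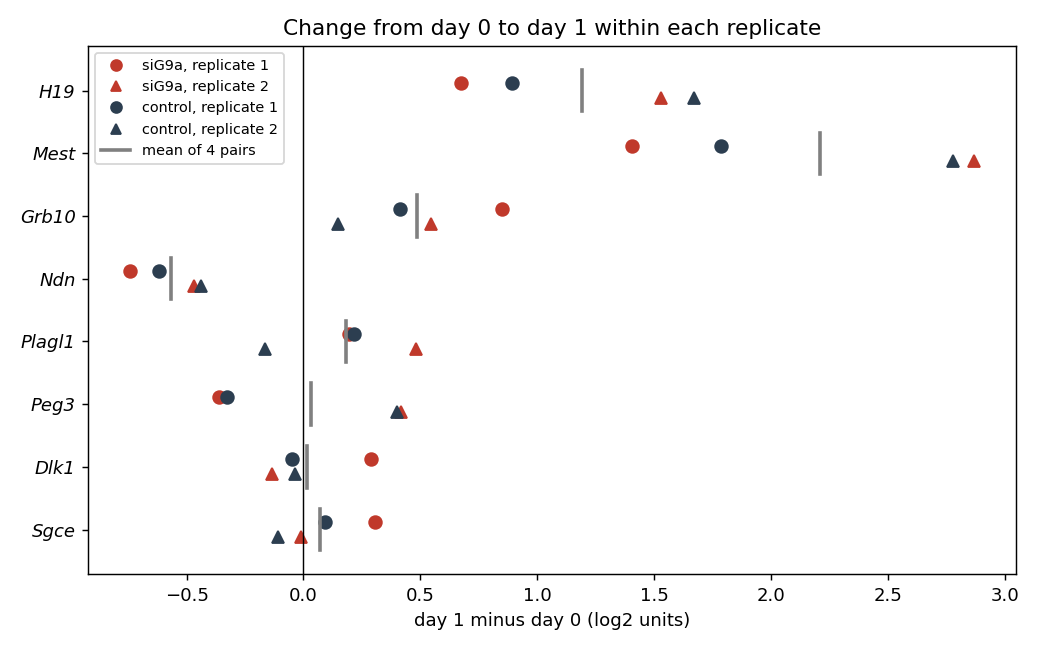
Day 1 minus day 0 of each gene's lead probe in log2 units, within each replicate of siG9a (red) and control (dark blue); circles are replicate 1, triangles replicate 2 and the grey bar the mean of the 4 pairs. H19, Mest and Grb10 lie to the right of 0 and Ndn to the left in all 4 pairs, and Peg3 divides by replicate.

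Within siG9a alone, limma called 0 of the 8 genes, beside 0.906% of all features (0.229% higher and 0.677% lower). At an unadjusted p below 0.05 it had 3 of the 8, beside 7.82% of all. The blocked fit called 4 of the 8, beside 8.98% of all (3.42% higher and 5.56% lower). Of all calls in siG9a 25.3% were higher by limma and 38.1% in the blocked fit, and after centring 13.6% and 25.4%. The blocked adjusted p was 0.00368 for Mest (2.14 ± 0.67, blocked SE 0.32) and 0.0135 for H19 (1.10 ± 0.62, blocked SE 0.22). It was 0.013 for Grb10 (0.70 ± 0.23, blocked SE 0.14) and 0.0236 for Ndn (-0.60 ± 0.20, blocked SE 0.13). Within control alone, limma called 0, beside 1.12% of all features (0.363% higher and 0.76% lower), and had 2 of the 8 at an unadjusted p below 0.05, beside 7.7% of all. The blocked fit called 3, beside 8.83% of all (3.85% higher and 4.97% lower). These were Mest at 2.28 ± 0.67 (blocked SE 0.32, adjusted p = 0.00241), H19 at 1.28 ± 0.62 (0.22, 0.00589) and Ndn at -0.53 ± 0.20 (0.13, 0.0432). Grb10 stood at 0.28 ± 0.23 in control (blocked SE 0.14, adjusted p = 0.339). The difference of its day change between siG9a and control was 0.42 ± 0.33 (adjusted p = 1, blocked 0.92), so the changes are not shown to differ. In the blocked fit, Mest remained called in both when any 1 array was left out. H19 in siG9a was lost without siG9a replicate 2 at either day (adjusted p up to 0.122) and in control without control replicate 2 at either day (up to 0.0797). Ndn in control remained called in only 2 of the 8 such fits, those without siG9a replicate 1 or replicate 2 at day 0, and was also lost under centring (adjusted p = 0.0545). In siG9a, Ndn was lost without siG9a replicate 1 at either day or siG9a replicate 2 at day 1 (up to 0.213). Grb10 in siG9a was lost without siG9a replicate 1 at either day or siG9a replicate 2 at day 0 (up to 0.129). The averages over siG9a and control of all 4 genes remained called without each array.

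The replicates stood apart most at H19 and Mest. Replicate 2 minus replicate 1, H19 differed by -0.71 in siG9a and -0.81 in control at day 1, and by -1.56 in siG9a and -1.59 in control at day 0. Mest differed by -0.27 in siG9a and -0.89 in control at day 1, and by -1.73 in siG9a and -1.88 in control at day 0. Replicate 2 was thus the lower one in every group, and more so at day 0. The second H19 probe differed by 0.79 in siG9a and 0.53 in control at day 1, opposite in sign to the lead probe, and by -0.40 and -0.48 at day 0. Myogenin (Myog), a transcription factor of muscle differentiation, differed between replicates by -0.78 in siG9a and -0.61 in control at day 1 and by -3.42 in siG9a and -2.61 in control at day 0. Myog itself was higher at day 1 by 3.6 ± 0.76 on average (limma adjusted p = 0.0341, blocked 0.000322). Of the 10 myoblast markers, 8 stood higher at day 1, with a median of 1.15, beside 0.053 over all features. Limma called 1 of them, higher, and the blocked fit 7, all higher. The blocked fit called 2 of 10 fibroblast markers higher and 1 lower, with a median of 0.119, and none of 8 endothelial markers, with a median of 0.093. Limma called none in either list. Over all features the blocked fit called 6.55% higher and 8.64% lower, and limma 1.5% and 2.76%. Col3a1, Col1a1 and Pdgfra, picked after their values were seen, were higher in replicate 2, unlike Mest and the lead H19 probe. At day 1 the second H19 probe was higher in replicate 2 as well. The median replicate difference of all 10 fibroblast markers lay between 0.189 and 0.59, beside 0.181 over all features on average. The part of the differentiation state and of the cell makeup of the cultures in the changes of H19 and Mest was not tested.

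**Figure D3:**
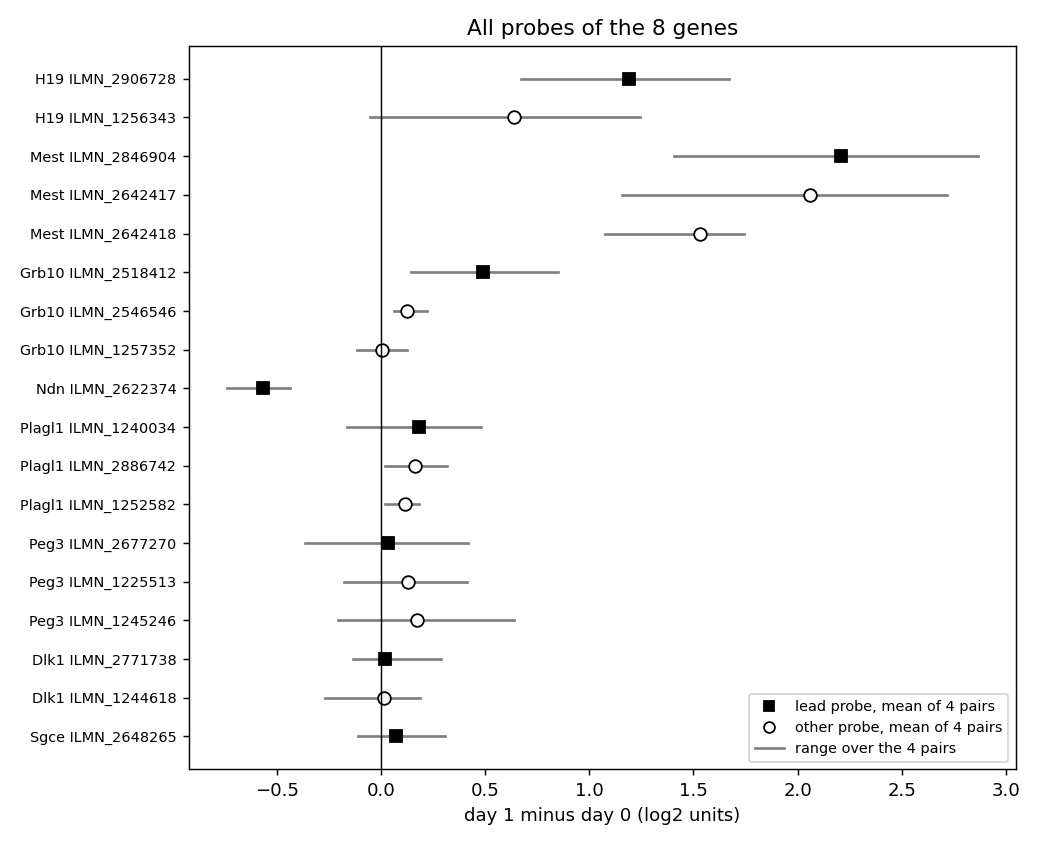
Day 1 minus day 0 in log2 units for all 18 probes of the 8 genes; squares are lead probes and circles other probes, each the mean of 4 pairs of replicate and siRNA, and the grey line spans the 4 pairs. The 3 Mest probes lie between 1.53 and 2.21, while the 3 Grb10 probes range from 0.0077 to 0.49.

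The second question was whether siG9a cells differed from control cells. None of the 8 genes was called at day 1, at day 0 or averaged over both days, by limma or in the blocked fit, and 0% of all features were called in any of these comparisons. At an unadjusted p under 0.05, limma had 0 of the 8 genes in each, beside 0.172% of all features at day 1, 0.391% at day 0 and 0.471% for the average. The blocked fit had Grb10 alone at day 1, beside 3.8% of all features, and none at day 0 (5.5%) or on average (4.9%). The median difference of the 8 genes was -0.02 at day 1 and -0.132 at day 0, beside 0.024 and -0.036 over all features.

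Peg3 was higher in siG9a in all 4 pairs on its lead probe, by 0.37 and 0.19 at day 1 and by 0.41 and 0.17 at day 0. The average was 0.28 ± 0.22 (limma adjusted p = 1). The probe ILMN_1245246 was higher in all 4 pairs too, by 0.204 on average, and ILMN_1225513 in 3 of 4, by 0.106, with the exception at day 1 in replicate 2 (-0.29). Mest was lower in all 4 pairs, with differences of -0.63 and -0.019 at day 1 and of -0.25 and -0.11 at day 0 and an average of -0.25 ± 0.48. Its other 2 probes were lower in 3 of 4 pairs each. These 2 genes are 2 of 8 that moved one way in all pairs, where 15% of all features did, 6.64% higher and 8.37% lower.

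Grb10 was higher in siG9a at day 1 by 0.58 and 0.27, and stood at 0.14 and -0.13 at day 0. The day 1 difference was 0.42 ± 0.23 (limma adjusted p = 1, blocked 0.993), and its other probes stood at -0.079 and -0.023 and at 0.13 and 0.049. Ndn stood at -0.089 and -0.37 at day 1 and at 0.035 and -0.34 at day 0, an average of -0.19 ± 0.14. Dlk1 was lower in 3 of 4 pairs, with an average of -0.14 ± 0.14. H19 differed by -0.18 and -0.083 at day 1 and by 0.037 and 0.061 at day 0. Plagl1 averaged -0.044 ± 0.20 and Sgce -0.035 ± 0.15.

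The 4 differences within replicate and day were also tested against 0, with each of the 2 replicates counted at both days. They are not 4 independent samples, so the test overstates the number of samples. In it limma called 256 features (0.814%) and none of the 8 genes. Peg3 had the smallest of the 8 limma p-values there (adjusted p = 0.13), followed by Mest (adjusted p = 0.353), Grb10 (0.553) and Ndn (0.557). At an unadjusted p under 0.05 this makes 4 of 8, beside 8.06% of all features. The effect of siG9a did not pass a test of difference between days for any of the 8 genes (adjusted p = 1 for each, blocked between 0.92 and 0.998).

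**Figure D4:**
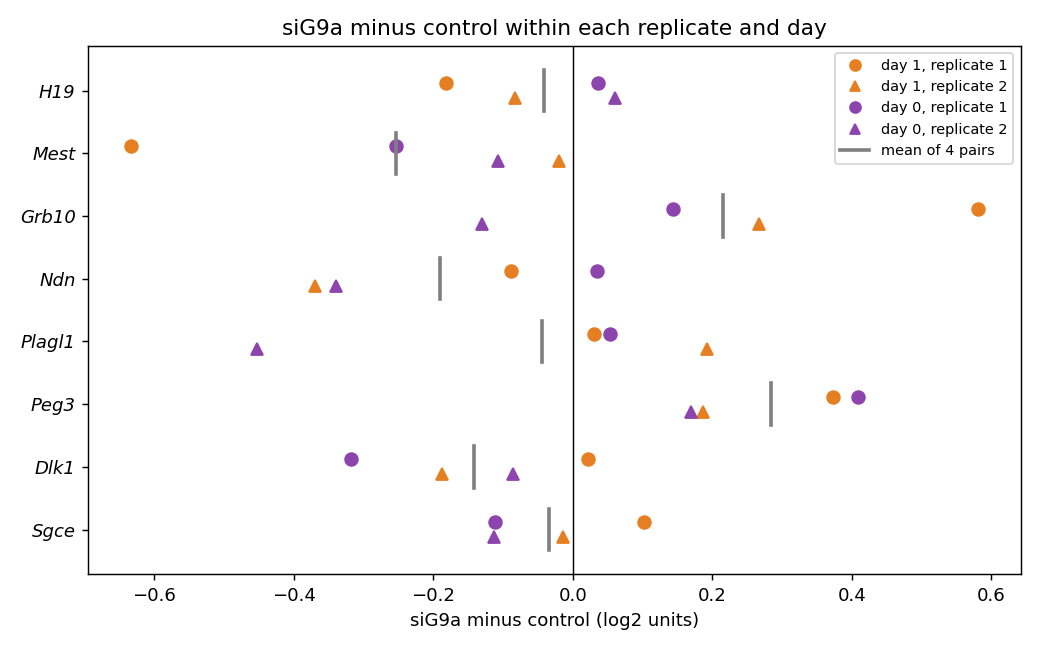
siG9a minus control for each gene's lead probe in log2 units, within each replicate at day 1 (orange) and day 0 (purple); circles are replicate 1, triangles replicate 2 and the grey bar the mean of the 4 pairs. Peg3 lies to the right of 0 and Mest to the left in all 4 pairs, and no gene passed the test.

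Genes next to the 8 in the same imprinted domains were described from a list of 30, of which 26 were measured. Over the day, averaged over siG9a and control, limma called 2 higher and 0 lower, beside 1.5% and 2.76% of all features. The blocked fit called 5 higher and 1 lower, beside 6.55% and 8.64%. Igf2, the fetal insulin-like growth factor beside H19, stood at -0.31 and 0.11 in siG9a and at -0.019 and 0.23 in control at day 1, against -2.45 and -4.78 in siG9a and -2.74 and -4.78 in control at day 0. The days did not overlap, and Igf2 rose by 3.69 ± 0.55 (adjusted p = 0.00692, blocked 0.000391). Replicate 2 minus replicate 1, it differed by 0.42 in siG9a and 0.24 in control at day 1, and by -2.33 and -2.04 at day 0. Ddc, the aromatic amino acid decarboxylase gene beside Grb10, rose by 1.78 ± 0.35 (adjusted p = 0.0255), and its other probes stood at 1.81 and 0.365. In the Peg3 domain Usp29 (0.39 ± 0.12) and Zim1 (0.28 ± 0.11) were called higher in the blocked fit alone (adjusted p = 0.015 and 0.0329), with the other 2 Usp29 probes at 0.028 and 0.067. Calcr, the calcitonin receptor gene of the Sgce domain, was called in the same way (0.31 ± 0.13, blocked adjusted p = 0.0259), with other probes at 0.064 and 0.132. Atp10a of the Ndn domain was called lower (-0.62 ± 0.15, blocked adjusted p = 0.00133), and Magel2, a MAGE gene like Ndn, stood at -0.064 ± 0.12. Copg2, beside Mest, stood at 0.22 ± 0.14, and Peg10, beside Sgce, at 0.053 ± 0.13. In the Dlk1 domain, the noncoding RNA Meg3 stood at 0.079 ± 0.13, Rtl1 at 0.15 ± 0.14 and the deiodinase gene Dio3 at 0.057 ± 0.14, and none was called. No neighbour was called between siG9a and control by limma on the group means or in the blocked fit.

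Of 67 further imprinted genes, these neighbours included, 60 were measured. Averaged over siG9a and control, the day change was positive in 44 and negative in 16, with a median of 0.133. Over all 31443 features it was positive in 20997 and negative in 10446, with a median of 0.053. Limma called 4 higher and 1 lower, beside 1.5% and 2.76% of all features. The blocked fit called 13 higher and 2 lower, beside 6.55% and 8.64%. Cdkn1c, the CDK inhibitor p57 and a known PLAGL1 target in mouse, rose by 5.72 ± 0.21 (adjusted p = 3.14e-05). Gnas, encoding the stimulatory G protein alpha subunit, rose by 0.50 ± 0.11 (adjusted p = 0.0471), with 1 of its 7 other probes at -0.074 and the others between 0.035 and 0.247. Inpp5f, a phosphoinositide phosphatase gene, fell by 0.86 (SE 0.13, adjusted p = 0.00858), while its other 2 probes stood at 0.019 and 0.015. Igf2r, the receptor that clears IGF2, was called higher in the blocked fit (1.08 ± 0.27, adjusted p = 0.000207), and so was the matrix proteoglycan gene Dcn (2.72 ± 0.88, adjusted p = 0.00711). Dcn stood at 0.089 and 4.01 in siG9a and at 0.82 and 4.06 in control at day 1, against -0.72 and -0.35 in siG9a and -0.73 and -0.089 in control at day 0, with replicate 2 well above replicate 1 at day 1. The other Dcn probes were higher at day 1 by 2.257, 0.608 and 0.361 on average. Between siG9a and control none of the 60 was called by limma on the group means or in the blocked fit. The smallest blocked p on average belonged to Tspan32 (0.59 ± 0.37, adjusted p = 0.591), Cdkn1c (-0.61 ± 0.21, 0.633) and Pon2 (-0.54 ± 0.16, 0.745). Tspan32 was higher in siG9a in all 4 pairs, as were 6.64% of all features. Cdkn1c and Pon2 were lower in all 4, as were 8.37%. The test of differences within replicate and day is not given for these genes.

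**Figure D5:**
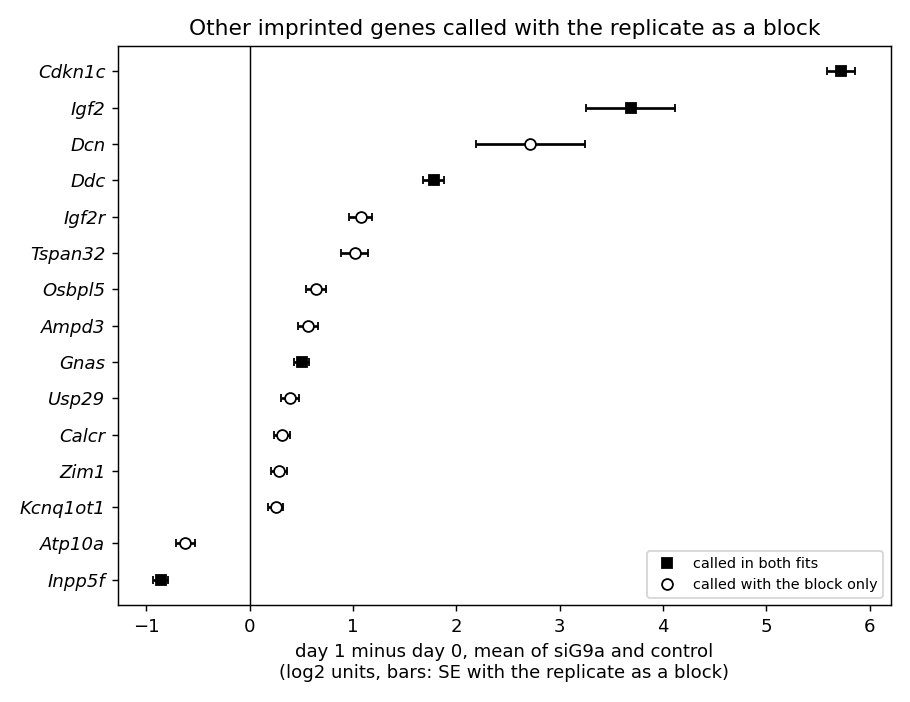
Day 1 minus day 0, averaged over siG9a and control, in log2 units for the 15 further imprinted genes called in the blocked fit; bars are the SE of that fit, squares were called in both fits and circles in the blocked fit alone. Cdkn1c and Igf2 lie farthest to the right, at 5.72 and 3.69, and Atp10a and Inpp5f lie below 0.

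Of 18 measured genes that set or maintain imprints, 12 stood lower and 6 higher at day 1 on average, with a median difference of -0.191, and limma called 4, all lower. Over all features, limma called 1.5% higher and 2.76% lower, and the blocked fit 6.55% and 8.64%. Dnmt1, the maintenance DNA methyltransferase, fell by 1.71 (SE 0.17, adjusted p = 0.00151), and Uhrf1, which recruits it to replicated DNA, fell by 2.09 (SE 0.30, adjusted p = 0.00591), though its second probe stood at -0.252. Smchd1, a chromatin protein of imprinted clusters, fell by 0.89 (SE 0.15, adjusted p = 0.0114) with its 4 other probes between -0.269 and 0.079. Ctcf, the insulator protein that binds between H19 and Igf2, fell by 0.66 (SE 0.13, adjusted p = 0.0255). The blocked fit called 8 lower and 1 higher, Zfp57, a zinc finger protein that binds methylated imprint control regions (0.34 ± 0.16, blocked adjusted p = 0.0373). Of 17 insulin and IGF signalling genes, limma called 3 higher, Igf1 (1.60 ± 0.26), its receptor gene Igf1r (1.03 ± 0.23) and the binding protein gene Igfbp3 (1.19 ± 0.26), and 1 lower, Igfbp6 (-0.96 ± 0.16). Their adjusted p was 0.0113, 0.0479, 0.0427 and 0.0113. Other probes stood at 1.493 and 0.276 for Igf1, 0.406 for Igf1r and 1.068 for Igfbp3. The blocked fit called 5 genes of this list higher and 2 lower. Igfbp2 stood at -1.402 and -1.389 on its probes and Igfbp4 at 1.378 and 1.32, and limma called neither. In neither list was a gene called between siG9a and control by limma on the group means or in the blocked fit, Ehmt2 included. The test of differences within replicate and day is not given for these lists.

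The genes whose pattern over the 8 arrays was most like each lead probe were ranked by the Pearson coefficient. These coefficients are descriptions over arrays that share a day and a replicate shift. The nearest to Mest was Igf2r (0.993), itself imprinted, followed by Nbl1 (0.992). H19 was nearest to Osbpl5 (0.997), an imprinted gene of the Cdkn1c domain, and to Rufy1 (0.997). The second Osbpl5 probe had an average day change of 0.052, against 0.643 on the probe ranked here. Grb10 was nearest to Camk2b (0.993) and Angptl6 (0.986), and Ndn to Srp72 (0.975) and Gpank1 (0.972). Peg3 was nearest to Ctsl (0.959) and Slc22a5 (0.958), and Plagl1 to Lsp1 (0.989) and Gpr37 (0.984). Dlk1 was nearest to 2410018L13Rik (0.983) and Gm20867 (0.983), and Sgce to Slc22a26 (0.986) and Tbc1d10c (0.984).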

How the data were processed

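The deposited values were taken as log2 on a scale relative to each probe. The probe median over the 8 arrays was 0 within 1e-05 in 32.9% of probes. The software, background correction, normalization and filters of the authors are not known from the sources used here. A further deposited table of unnormalized signals has 16 columns whose names match no sample, and was not used here, so detection is unknown.

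Probe symbols came from the platform's gene table and were updated through the Entrez ID (28620 probes), the transcript accession (2637) or not at all (4527), and 9497 probes had no symbol. For each of 21946 named genes the probe of largest standard deviation was kept, and unnamed probes singly, giving 31443 features. Limma 3.58.1 under R 4.3.3 fitted 1 model of the 4 group means over 8 arrays, with empirical Bayes moderation (4 residual and 4.59 prior degrees of freedom), for 7 comparisons. With 2 arrays per group an exact permutation p is at least 0.333, two-sided. The number of arrays limits the precision. Replicate numbers are those of the sample titles. The design text calls the replicates biological, and nothing says whether replicates came from separate animals, so p-values measure the spread between these samples. Deviations from the group means of same-numbered arrays correlated across features with r between 0.613 and 0.865 in the 6 pairs of groups, so the numbers were taken to pair the arrays. The blocked fit has 3 residual and 5.87 prior degrees of freedom. The model was tested on simulated data. Alternatives were the block, median centring, every probe singly, each array left out, and differences within replicate and day. Centring with the block, and the block with each array left out, were chosen after seeing the data.

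The 8 genes, the lists and the tests were chosen with earlier results of these data known, and the naming rule was all probes of the 8 genes, Ehmt2, measured neighbours in a domain, up to 6 genes of smallest p per list and 2 most alike genes per member. Marker lists of 8 leukocyte and 7 measured adipocyte genes had median day changes of -0.026 and 0.068, beside 0.053 over all features.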

Additional observations from a re-analysis of the deposited data

How the results depend on the processing

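The replicate numbers pair the arrays, and the replicate block changed the calls between days and none between siG9a and control. With the replicate block, the count of features called was 2825 in siG9a, 2775 in control and 4775 on their mean, against 285, 353 and 1341 without it, and 4, 3 and 4 of the 8 genes were called. Median centring gave 147 features in siG9a and 92 in control, and 0 of the 8 genes on the mean. Centring with the replicate block gave 3120, 2758 and 4769 features and 4, 2 and 4 genes. Tested as differences within replicate and day, with each of the 2 replicates counted at both days, siG9a against control gave 256 features. Leaving out each array gave 4 to 363 features in siG9a, 7 to 363 in control and 794 to 1233 on the mean, where 0 to 1 of the 8 genes was called. In siG9a the counts moved by over 1.5 times without any siG9a or control array of day 0 (11 to 187) or any siG9a array of day 1 (4 and 81), in control without any control array (7 to 141), and on the mean without siG9a replicate 2 at day 0 (794) or control replicate 2 at day 0 (840). In the blocked fit, leaving out each array gave 1560 to 2800 features and 2 to 4 genes in siG9a, and 1483 to 2861 features and 1 to 3 genes in control. The features moved by over 1.5 times in siG9a without any siG9a array (1560 to 1758) and in control without either control array at day 1 (1548 and 1483) or control replicate 1 at day 0 (1605). When an array is left out, the lone array of its group is assumed to vary like the other groups. Testing every probe singly left the count called by lead probe as it was in each comparison, but in control the Mest probe ILMN_2642418 was then called (adjusted p = 0.0463).

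None of the differences that changed sign had been called, with or without the alternative. Under centring, with or without the block, the day difference turned to -0.0087 for Dlk1 and -0.057 for Peg3 in siG9a, and to -0.030 and -0.015 on the mean. Leaving out each array, the day difference in siG9a ran from -0.15 to 0.30 for Dlk1, -0.43 to 0.48 for Peg3 and -0.061 to 0.36 for Sgce. In control it ran from -0.16 to 0.074 for Dlk1, -0.30 to 0.37 for Peg3, -0.33 to 0.39 for Plagl1 and -0.22 to 0.20 for Sgce. On the mean it ran from -0.094 to 0.13 for Dlk1, -0.20 to 0.26 for Peg3 and -0.034 to 0.18 for Sgce. The siG9a difference at day 1 ran from -0.20 to 0.033 for Dlk1, -0.54 to 0.27 for H19, -0.77 to 0.12 for Mest, -0.14 to 0.36 for Plagl1 and -0.066 to 0.15 for Sgce. At day 0 it ran from -0.42 to 0.021 for Dlk1, -0.14 to 0.16 for Grb10, -0.74 to 0.84 for H19, -1.12 to 0.76 for Mest, -0.39 to 0.086 for Ndn, -0.17 to 0.75 for Peg3, -0.56 to 0.16 for Plagl1 and -0.32 to 0.097 for Sgce. Averaged over days it ran from -0.44 to 0.35 for H19, -0.72 to 0.22 for Mest, -0.22 to 0.14 for Plagl1 and -0.14 to 0.070 for Sgce. The change of that difference between days ran from -0.10 to 0.34 for Dlk1, -0.97 to 0.61 for H19, -1.09 to 0.79 for Mest, -0.32 to 0.16 for Ndn, -0.46 to 0.45 for Peg3, -0.047 to 0.67 for Plagl1 and -0.054 to 0.37 for Sgce. The cause of these changes was not tested. Signal over background is unknown, so probes near background could not be set aside.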
